A study of Rattus norvegicus with 12 samples.

Results

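Interferon response genes were taken here as a listed set of 39 genes: 26 that type I interferon induces, called the type I set, and 13 that respond chiefly to interferon gamma, called the gamma set. A probe was matched by its transcript accession for 37 of them. Of these, 36 (23 type I and 13 gamma) were bright enough to be tested, out of 11211 genes tested on the arrays. Ddx58 and Xaf1 had no matched probe, and the probe of Ifit1 was too dim, since it stood well above background on only 3 of the 12 arrays. Of the 36 genes tested, 33 passed the brightness rule in all 4 groups, Oasl and Bst2 passed in 3 groups, and Irf8 passed only in the normal sodium group, where it was highest, so that a difference of Irf8 from that group was built into its inclusion.

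The material was the left ventricle of male Sprague-Dawley rats, hybridised to one-colour Agilent arrays, 3 arrays in each of 4 groups. Every rat ate a 60% fructose diet over 8 weeks, which models the metabolic syndrome, and the sodium content of the diet and an infusion of angiotensin II (AngII), the pressor peptide of the renin-angiotensin system, were varied. In the group called normal sodium with AngII the diet held 0.64% NaCl and AngII was given under the skin at 200 ng/kg/min in the last 4 weeks. The normal sodium group had the same diet and no infusion. The group called low sodium with AngII ate the diet with less than 0.01% NaCl and received the same infusion, and the low sodium group ate that diet without infusion. The labels name no group without fructose and no sham infusion. They state 40 rats for each diet and do not say how those on the arrays were picked, and since they describe each array only as a separate sample, p-values here measure the spread between these samples.

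Type I interferons signal through their receptor and the kinases Jak1 and Tyk2 to a complex that includes Stat2 and Irf9 and binds the interferon-stimulated response element (ISRE) in the promoters of antiviral genes. Interferon gamma acts mainly through the gamma-activated sequence (GAS), and through Irf1 and Irf8, on genes for antigen processing. Many cell types of the heart can transcribe these genes, and the antiviral programme is best known there from viral myocarditis and infarction.

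The promoters of the set show which of these elements its members carry. RefSeq promoter sequences (assembly GRCr8, first start site of each gene) were found for 30 of the 39 members, and the 250 bases before each start site were searched on both strands. The core of the ISRE, searched as GAAANNGAAA, was present in 20 of 30 members (66.7%) against 902 of all 27457 promoters (3.29%). It was found in 12 of 17 type I members (70.6%) and in 8 of 13 gamma members (61.5%). The GAS, searched as TTCNNNGAA, which can overlap the ISRE core, was present in 7 of 30 members (23.3%) against 7.52% of all promoters. Its share was alike in the sets, with 4 of 17 type I members (23.5%) and 3 of 13 gamma members (23.1%). The windows below belong to 8 of the members that hold a match and reach an unadjusted p under 0.05 in at least 1 of the comparisons that follow. Each is written 5′ to 3′ on the strand of its gene, and capitals mark the ISRE core (a match on the other strand reads TTTCNNTTTC), or the GAS in Irf8. The windows of Bst2 and Parp14 also hold a GAS match, which is not marked. Eif2ak2 (ISRE core), Irf9 and Psmb8 (GAS) likewise hold a match and reach that threshold, and their windows are not shown.
Irf7: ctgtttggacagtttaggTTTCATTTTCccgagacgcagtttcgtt
Ifih1: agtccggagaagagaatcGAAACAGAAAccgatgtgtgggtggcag
Ifit3: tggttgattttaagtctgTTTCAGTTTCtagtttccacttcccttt
Rsad2: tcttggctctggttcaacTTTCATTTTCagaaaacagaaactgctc
Bst2: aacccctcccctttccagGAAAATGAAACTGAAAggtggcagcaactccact
Parp14: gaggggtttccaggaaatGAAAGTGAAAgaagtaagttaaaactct
Gbp2: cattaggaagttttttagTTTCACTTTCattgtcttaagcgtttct
Irf8: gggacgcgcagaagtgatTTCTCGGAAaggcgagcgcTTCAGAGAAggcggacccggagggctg
In GRCr8 these windows lie upstream of Irf7 at chr1:205800065-205800110 (minus strand, -87 to -42 from the start site), Ifih1 at chr3:67684000-67684045 (minus strand, -77 to -32 from the start site), Ifit3 at chr1:241527264-241527309 (plus strand, -62 to -17 from the start site) and Rsad2 at chr6:48788240-48788285 (minus strand, -165 to -120 from the start site). The others lie upstream of Bst2 at chr16:18255065-18255116 (minus strand, -149 to -98 from the start site), Parp14 at chr11:78408040-78408085 (plus strand, -94 to -49 from the start site), Gbp2 at chr2:234005678-234005723 (plus strand, -49 to -4 from the start site) and Irf8 at chr19:65699086-65699149 (plus strand, -198 to -135 from the start site).
Among tested members with a promoter sequence, the 19 with an ISRE core had a median log2 change with AngII of 0.26 on normal sodium and -0.21 on low sodium. The 10 without one had 0.27 and -0.37. A match describes letters in a window and not a bound site.

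The 75th percentile of the intensity was 1399 to 1988 per array against a local background of 20 to 29.5, and none of the spots of the set was saturated. Normal sodium replicate 1 had 88 non-uniform spots against 0 to 3 elsewhere. Of the ventricular cardiomyocyte markers, 9 of 9 tested were well above background on all arrays. The 3 atrial markers tested were uneven. The median of their levels, each minus the gene's mean, was -2.23 on normal sodium with AngII replicate 2. On low sodium with AngII replicate 2 it was 1.81. The part of atrial tissue in the values below was not tested. Levels below are log2 intensities minus the 75th percentile of the array, and the number of arrays limits their precision. Replicate numbers 1, 2 and 3 are also slides 1, 2 and 3, and a group held 1 fixed place on every slide, so that place and group cannot be told apart.

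The type I set varied widely between arrays of one group. A score per array, the median over the set of each gene's level minus its mean over the 12 arrays, was 0.31, 0.57 and 0.09 on the 3 arrays of normal sodium with AngII, against 0.33, -0.44 and -0.26 on those of normal sodium. It was -0.34, -0.38 and 0.16 on low sodium with AngII, against 0.20, 0.47 and -0.31 on low sodium. Both positive and negative scores thus occurred in 3 of the 4 groups, and only normal sodium with AngII had 3 scores above 0. On 2 arrays nearly the whole set was high: 22 of 23 type I members exceeded their own median on normal sodium with AngII replicate 1 and on low sodium replicate 2. On low sodium with AngII replicate 2 none of the 23 did, on normal sodium replicate 2 and on low sodium replicate 3 only 2 did, and 9 members had their lowest value of all 12 arrays on normal sodium replicate 2. The group means of the score were 0.32 ± 0.24 in normal sodium with AngII and -0.12 ± 0.41 in normal sodium, and -0.19 ± 0.30 in low sodium with AngII and 0.12 ± 0.39 in low sodium (SD, n = 3 each).

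**Figure D1:**
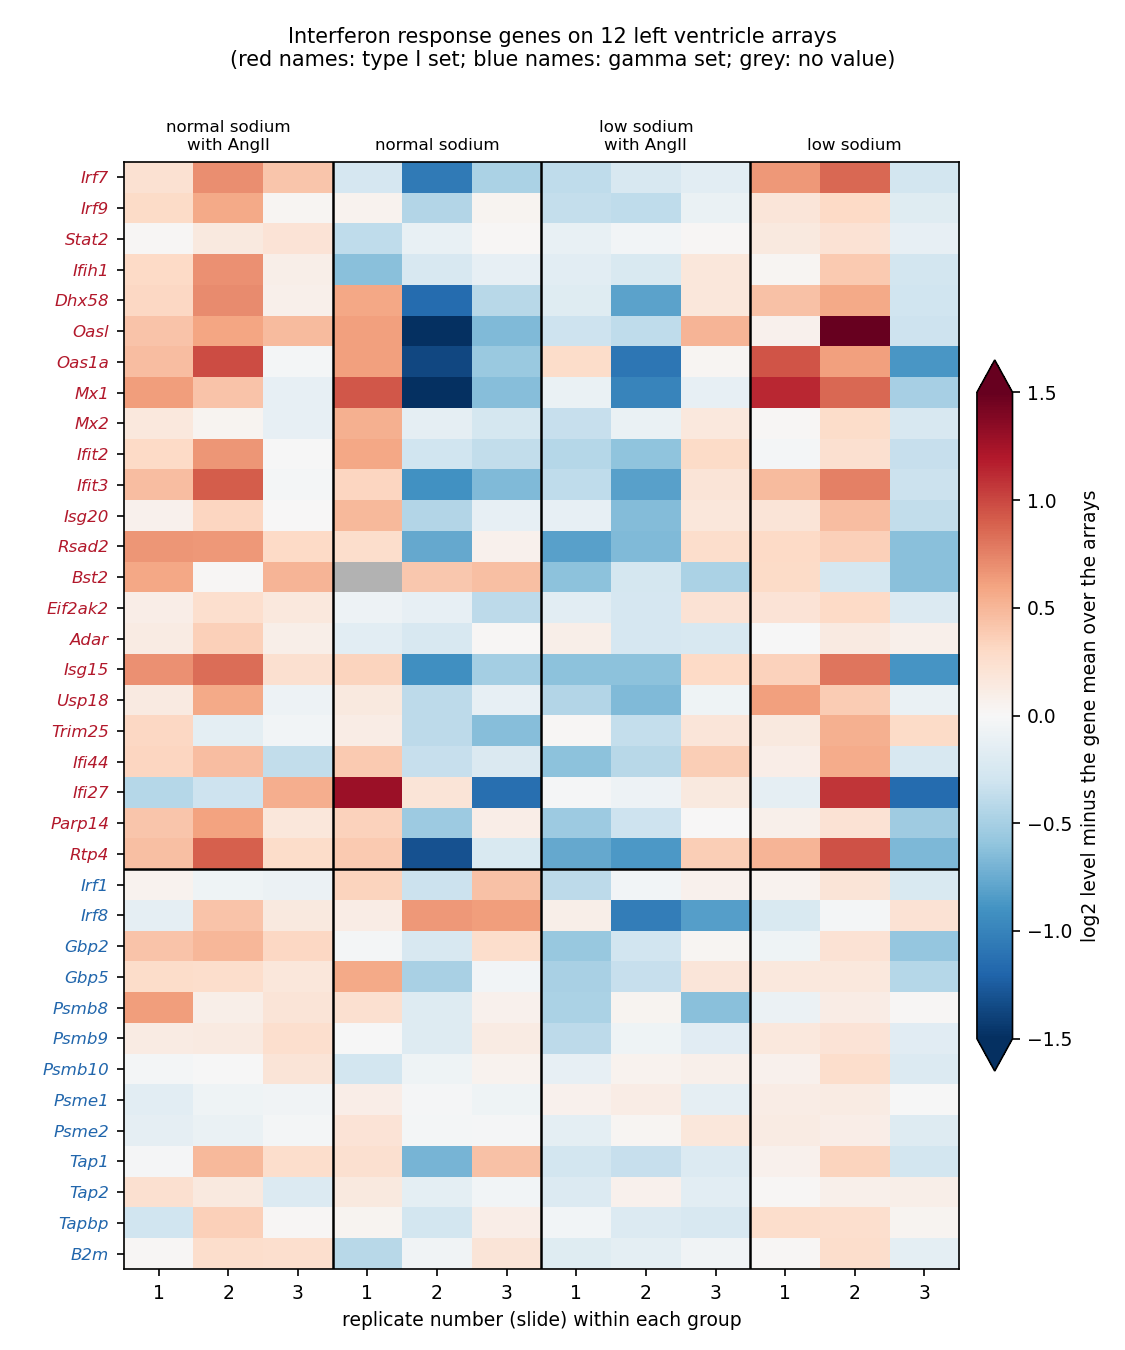
Level of each of the 36 tested interferon response genes (rows, type I set above the line and gamma set below) on the 12 arrays (columns, by group and slide), as log2 level minus the gene's mean. Columns rather than whole groups share a colour in the type I block: normal sodium replicate 2 and low sodium with AngII replicate 2 are blue, and low sodium replicate 2 and normal sodium with AngII replicate 2 are red.

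The gamma set spread less. Its score was 0.01, 0.14 and 0.17 on normal sodium with AngII, against 0.11, -0.19 and 0.09 on normal sodium. On low sodium with AngII it was -0.21, -0.07 and -0.13, against 0.07, 0.20 and -0.17 on low sodium. The low sodium arrays with AngII were all below 0 and the normal sodium arrays with AngII all above it. The pooled SD between arrays of a group was 0.34 for the type I score and 0.14 for the gamma score. The type I score minus the gamma score lay between -0.35 on normal sodium replicate 3 and 0.44 on normal sodium with AngII replicate 2, and in each group its sign differed between arrays.

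**Figure D2:**
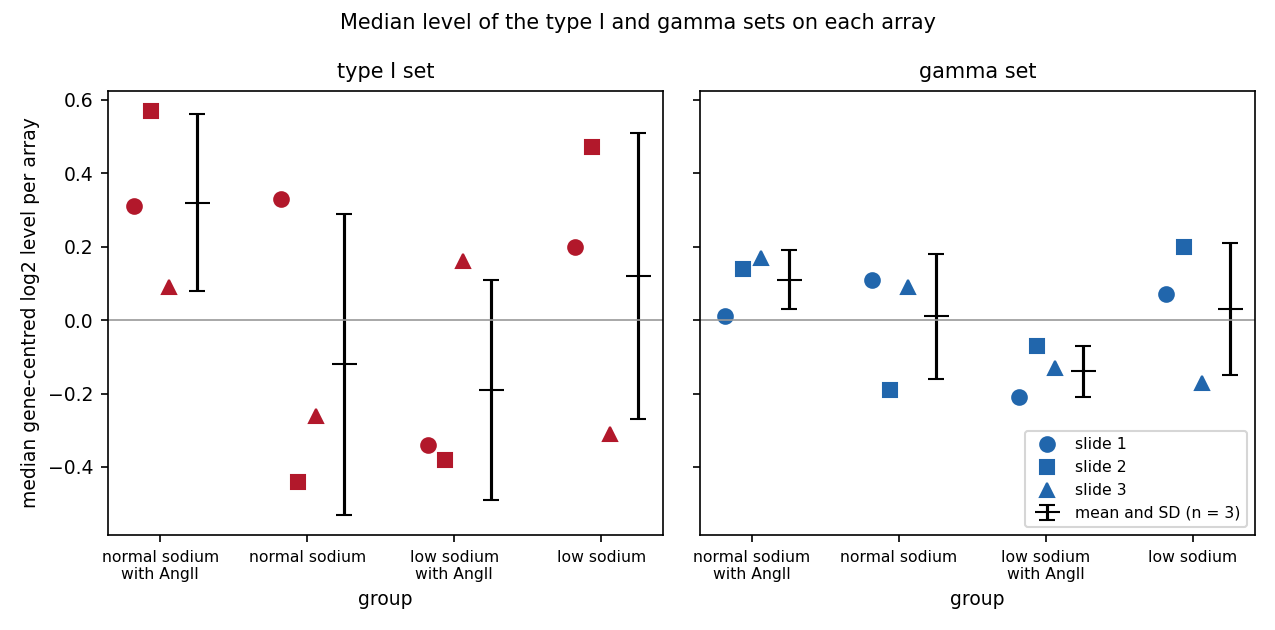
Median gene-centred log2 level of the type I set (left) and the gamma set (right) on each array, by group, with symbols for the slide and bars for mean and SD of 3 arrays. Type I scores spanned -0.44 to 0.57 and overlapped between every pair of groups, while gamma scores of low sodium with AngII (-0.21 to -0.07) lay below those of normal sodium with AngII (0.01 to 0.17).

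The first comparison asked what AngII did on normal sodium. Of the 36 genes, 29 had a higher mean with AngII than without it (20 of 23 type I, 9 of 13 gamma), against 52.7% of all genes. The median log2 change was 0.41 for the type I set and 0.14 for the gamma set, against 0.01 for all genes. The largest values were those of Oasl (1.35), an oligoadenylate synthetase-like RNA-binding protein, of Irf7 (1.05), the transcription factor that amplifies type I responses, and of Isg15 (0.96), the ubiquitin-like modifier. Oasl was dim on normal sodium, at -4.98, -8.10 and -6.26, and well above background on only 2 of those arrays. Its change of 1.35 ± 0.68 was -0.19, 3.09 and 1.13 on slides 1, 2 and 3. The lowest values were those of Irf8 (-0.31), Irf1 (-0.19) and Ifi27 (-0.18), a membrane protein of mitochondria. A lower value of Irf8 was built into its inclusion through normal sodium. No member passed limma's test adjusted over all 20020 probes, and neither did any other probe (0%). At an unadjusted p under 0.05 there were 3 members, all higher, namely Irf7, Ifih1 and Adar, and 0 lower, against 4.42% of all genes higher and 3.53% lower. The groups did not overlap in 7 members that were higher (Irf7, Stat2, Ifih1, Rsad2, Eif2ak2, Adar and Gbp2) and in 1 that was lower (Psme2), against 7.62% and 6.62% of all genes. Compared within slides, 16 of the 36 were higher with AngII on all 3 slides, against 17.0% of all genes. The slides differed in size: the type I median was 0.06 on slide 1, 0.96 on slide 2 and 0.36 on slide 3. Without slide 2 it was 0.17, and the gamma median turned to -0.05 (and to -0.03 without normal sodium replicate 2 alone).

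On low sodium the same infusion went with lower means. Of the 36 genes, 34 had a lower mean with AngII than without it (22 of 23 type I, 12 of 13 gamma), and the exceptions were Psme2 (0.01) and Ifi27 (0.09), followed by Psmb10 (-0.04). The median log2 change was -0.37 for the type I set and -0.18 for the gamma set, against -0.01 for all genes, of which 45.7% were above 0. The lowest values were those of Mx1 (-0.91), a dynamin-like antiviral GTPase, Usp18 (-0.69), the protease that removes Isg15, and Rtp4 (-0.68), a transporter-like protein of the antiviral response. Again no member and no other probe passed after adjustment (0%). At an unadjusted p under 0.05, 2 members were lower (Irf7 and Usp18) and 0 higher, against 0.856% of all genes lower and 0.928% higher. Groups did not overlap in 1 member that was lower, Tapbp, and in 0 that were higher, against 3.34% and 3.46% of all genes. Of the 36, 6 were lower on all 3 slides and 0 higher, against 8.97% and 8.28% of all genes. On slide 3 the type I median was 0.48, and on slides 1 and 2 it was -0.62 and -1.01. Without slide 2 it was -0.05 and without slide 3 -0.71, and leaving out replicate 2 of low sodium gave -0.18 and leaving out replicate 2 of low sodium with AngII gave -0.24. The gamma median moved to -0.09 without slide 2, -0.34 without slide 3, and leaving out single arrays gave -0.08 (low sodium replicate 2), -0.35 (low sodium replicate 3) and -0.11 (low sodium with AngII replicate 1).

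The difference between these effects was tested directly as the log2 change with AngII in low sodium rats minus the one in normal sodium rats. It was below 0 for 32 of the 36 genes, with a median of -0.78 for the type I set and -0.40 for the gamma set, against -0.03 for all genes, of which 45.4% were above 0. The exceptions were Psme1 (0.03), Irf1 (0.05), Psme2 (0.15) and Ifi27 (0.27), and the lowest values were those of Oasl (-1.83), Irf7 (-1.72) and Mx1 (-1.62). That of Oasl (± 0.96) includes its dim normal sodium arrays, and was -0.19, -4.97 and -0.32 on slides 1, 2 and 3. No member and no other probe passed after adjustment (0%). At an unadjusted p under 0.05, 11 members were below 0 and 0 above it, against 3.08% of all genes below and 2.44% above. They were Irf7, Irf9, Ifih1, Ifit3, Eif2ak2, Adar, Usp18, Trim25, Rtp4, Psmb8 and Psmb9. The difference was below 0 on all 3 slides for 13 of the 36, against 15.6% of all genes. In Trim25, Psmb8 and Psmb9, AngII stood higher on normal sodium and lower on low sodium on each slide, which held for 1.29% of all genes. Any difference below 0 counted as lower, and that of Psmb9 on slide 3 rounded to 0.00. The opposite pattern occurred in 0 members and 1.69% of all genes. The median of the type I set was -0.65, -1.81 and 0.09 on slides 1, 2 and 3, -0.34 without slide 2 and -1.22 without slide 3. The gamma median was -0.09 without slide 2, and leaving out replicate 2 of normal sodium gave -0.22 and that of normal sodium with AngII -0.26. Red cell markers (3 of 3 below 0, median -0.70, 2 at an unadjusted p under 0.05) and smooth muscle and pericyte markers (6 of 8 below 0, median -0.54, 2 at that threshold) lay on the same side, and the median of the macrophage markers was -0.19 (10 of 13 below 0). The median of the 3 atrial markers was -0.18, 5.59 and -4.48 on slides 1, 2 and 3. The part of these cells in the difference was not tested.

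The diets were also compared among infused animals. With AngII, 33 of the 36 genes had a lower mean on low than on normal sodium, while 42.6% of all genes had a higher one, and the exceptions were Ifi27 (0.08), Psme1 (0.10) and Psme2 (0.11). The median log2 change was -0.57 for the type I set and -0.30 for the gamma set, against -0.05 for all genes. The lowest values were those of Rtp4 (-0.96), Rsad2 (-0.94), the radical SAM enzyme viperin, and Isg15 (-0.90). After adjustment no member and no other probe passed (0%). At an unadjusted p under 0.05, 11 members were lower (Irf7, Irf9, Rsad2, Bst2, Adar, Usp18, Parp14, Irf8, Gbp2, Psmb8 and Psmb9) and 0 higher, against 8.05% of all genes lower and 4.33% higher. Groups did not overlap in 12 members, all lower on low sodium, and in 0 that were higher, against 13.3% and 11.1% of all genes. With array weights estimated from the data, 6 members passed after adjustment, as did 842 of all probes. Lower values on all 3 slides were found for 12 of the 36, against 25.2% of all genes. The type I median was -0.60, -0.95 and 0.05 on slides 1, 2 and 3, -0.21 without slide 2 and -0.86 without slide 3, whereas the gamma median was -0.25, -0.20 and -0.26 on the slides and -0.38 to -0.24 without any 1 array or slide. Macrophage markers moved with this comparison: 13 of 13 had a lower mean on low sodium, 8 of them at an unadjusted p under 0.05, and their summed level was 14.2 to 17.9 in low sodium with AngII against 18.8 to 21.2 in normal sodium with AngII, in multiples of the 75th percentile. Of the endothelial markers 7 of 7 were lower and of the red cell markers 2 of 3, 3 and 2 of them at that threshold. Fibroblast (6 of 7 lower, 3 at that threshold) and smooth muscle and pericyte markers (6 of 8, 2) lay on the same side. T and NK cell (9 of 12 lower, 1 at that threshold) and dendritic cell markers (4 of 4, 1) did too. So did B and plasma cell (4 of 4) and ventricular cardiomyocyte markers (9 of 9, median -0.11), with 0 at that threshold. Of the atrial markers 3 of 3 were higher, as were 3 of 4 skeletal muscle markers, and 2 of 4 neutrophil markers were lower. The part of these cells in the result was not tested, and in bulk tissue fewer cells of a type and less RNA per cell cannot be told apart. Over the 12 arrays the type I score and the macrophage score had a Pearson's r of -0.01 (Spearman's rho 0.01), and of -0.56 with group means removed, as a description. For the gamma score these Pearson values were 0.14 and -0.54. This comparison shares its arrays with the AngII comparisons above and is no separate evidence of them.

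The last comparison set the diets against each other without AngII. On low sodium 25 of 36 genes had a higher mean than on normal sodium, against 46.9% of all genes, with a median log2 change of 0.30 for the type I set, 0.05 for the gamma set and -0.02 for all genes. The highest values were those of Oasl (1.26), Irf7 (1.01) and Mx1 (0.91), and the lowest those of Bst2 (-0.64), Irf8 (-0.48) and Ifi27 (-0.18). That of Oasl (± 0.68) again includes its dim normal sodium arrays, and was -0.56, 3.99 and 0.35 on slides 1, 2 and 3. A lower value of Irf8 was again built into its inclusion. No member and no other probe passed after adjustment (0%). At an unadjusted p under 0.05, 2 members were higher (Irf7 and Trim25) and 1 was lower (Bst2), against 3.1% and 4.68% of all genes. The groups did not overlap in 1 member that was higher, Trim25, and in 1 that was lower, Bst2, against 5.08% and 6.71%. The type I median was 0.08, 0.90 and -0.02 on slides 1, 2 and 3 and turned to -0.05 without slide 2. It was 0.48 without slide 3, and leaving out single arrays gave 0.17 (low sodium replicate 2), 0.47 (low sodium replicate 3) and 0.18 (normal sodium replicate 2). The gamma median was -0.13 to 0.12 without any 1 array or slide. Of the macrophage markers 11 of 13 were lower on low sodium, 3 of them at an unadjusted p under 0.05, and of the T and NK cell markers 9 of 12 were lower, 4 at that threshold (medians -0.24 and -0.37). Of the endothelial markers 7 of 7 were lower, 3 at that threshold, and of the fibroblast markers 6 of 7, 2 at that threshold. Red cell markers (3 of 3 higher, median 0.39, 1 at that threshold) and smooth muscle and pericyte markers (5 of 8 higher, median 0.28, 2 at that threshold) lay on the side of the type I set. The part of these cells in the type I values was not tested.

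**Figure D3:**
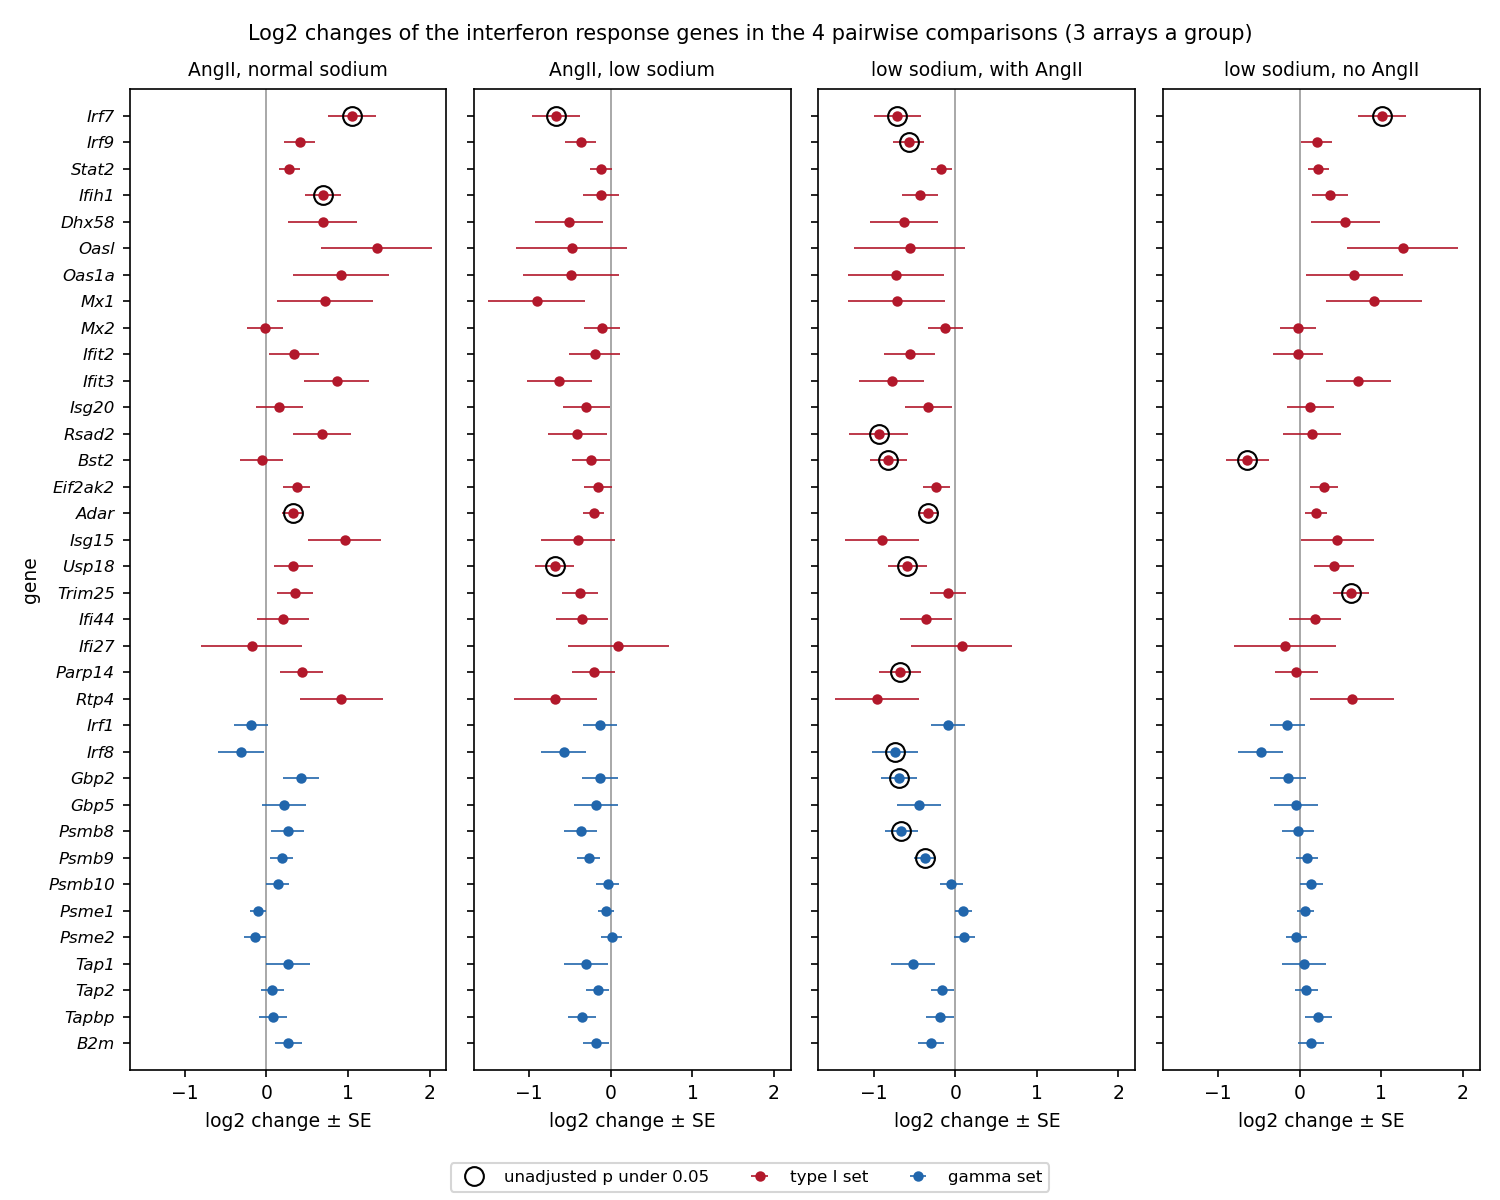
Log2 change of each tested gene with its limma standard error in the 4 pairwise comparisons (AngII minus no AngII, or low minus normal sodium), with rings at an unadjusted p under 0.05. Most type I genes lie right of 0 for AngII in the normal sodium panel (20 of 23) and left of 0 in the low sodium panel (22 of 23), and rings are most frequent for low sodium with AngII.

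Among the transcription factors of the type I set, Irf7 had the lowest p of all members in the test of diet dependence. Its level was 1.49, 1.96 and 1.68 on normal sodium with AngII, against 1.01, 0.20 and 0.79 on normal sodium, and 0.88, 1.02 and 1.11 on low sodium with AngII, against 1.92, 2.12 and 0.99 on low sodium. All normal sodium arrays with AngII lay above all normal sodium arrays, and above all low sodium arrays with AngII, while on low sodium without infusion replicates 1 and 2 were high and replicate 3 was at the level of the infused group. The log2 change with AngII was 1.05 ± 0.29 on normal sodium (2.06-fold, limma adjusted p = 0.669) and -0.67 ± 0.29 on low sodium (adjusted p = 1). The difference of these changes was -1.72 ± 0.41 (adjusted p = 0.857), and it was -2.19 to -1.14 over 22 alternative settings, with an unadjusted p under 0.05 in all 22. Irf9, the DNA-binding partner of Stat2, was at -1.69, -1.41 and -1.94 on normal sodium with AngII, against -1.92, -2.42 and -1.93 on normal sodium, and at -2.33, -2.35 and -2.08 on low sodium with AngII, against -1.79, -1.68 and -2.16 on low sodium. Its values with AngII were lower on low than on normal sodium on every array (log2 change -0.57 ± 0.19, adjusted p = 0.342). Stat2, which carries the transactivating domain of that complex, had log2 changes between -0.17 and 0.28 in the 4 comparisons.

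**Figure D4:**
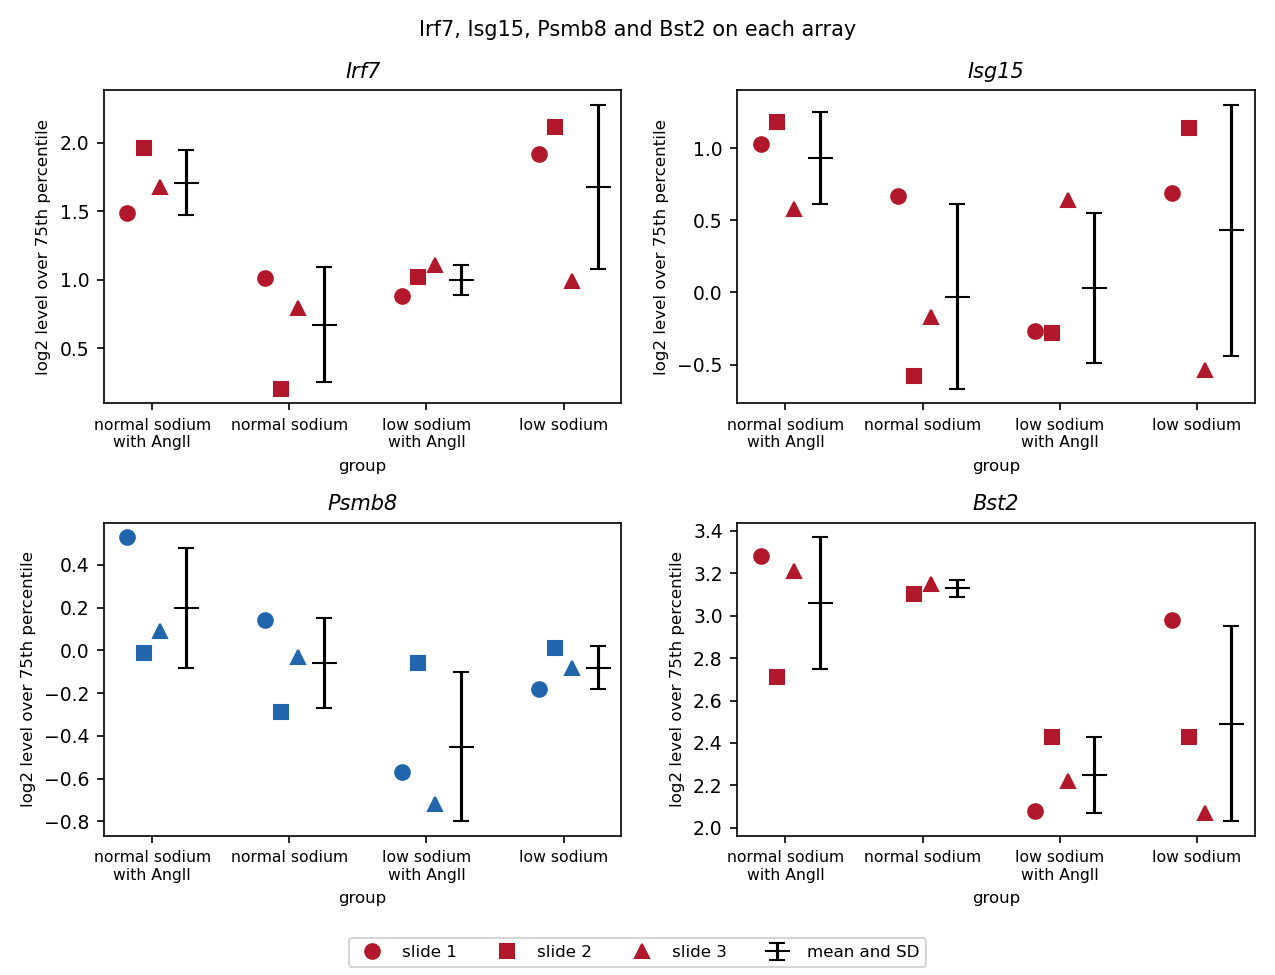
Log2 level over the array's 75th percentile of Irf7, Isg15, Psmb8 and Bst2 on each array, by group, with symbols for the slide and bars for mean and SD (n = 3, and n = 2 for Bst2 on normal sodium). Irf7 on normal sodium with AngII (1.49 to 1.96) lies above normal sodium (0.20 to 1.01), Isg15 spreads over more than 1 log2 unit within 2 of the groups, and Bst2 is lower on low sodium with AngII (2.08 to 2.43) than on normal sodium with AngII (2.71 to 3.28).

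The cytosolic RNA sensors are encoded by Ifih1 (Mda5) and Dhx58 (Lgp2). Ifih1 was at -3.51, -3.13 and -3.72 on normal sodium with AngII, against -4.44, -4.05 and -3.93 on normal sodium, and at -3.97, -4.04 and -3.64 on low sodium with AngII, against -3.78, -3.42 and -4.09 on low sodium. The normal sodium arrays with AngII were all above those without it (log2 change 0.69 ± 0.22, adjusted p = 0.669), and the low sodium groups overlapped. Over the alternatives that change ranged from 0.36 to 0.93. Dhx58 was less even, at -3.11, -4.85 and -4.11 on the normal sodium arrays, of which replicate 1 was as high as the infused group.

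The antiviral effectors were the largest role group, with 11 tested members that cut or bind viral RNA, block translation or hold virions at the membrane. Of these 11, 9 had a higher mean with AngII on normal sodium and 11 a lower mean with AngII on low sodium. Ifit3, which binds foreign RNA with its Ifit partners, was at -1.83, -1.38 and -2.32 on normal sodium with AngII, against -1.97, -3.20 and -2.95 on normal sodium, and at -2.67, -3.10 and -2.10 on low sodium with AngII, against -1.82, -1.53 and -2.61 on low sodium. The groups overlapped on both diets, and the changes with AngII of 0.86 ± 0.40 and -0.63 ± 0.40 had adjusted p-values of 0.669 and 1. The difference of these changes was -1.50 ± 0.56 (adjusted p = 0.857) and ranged from -2.19 to -0.55 over the alternatives. Rsad2 was at 0.96, 0.95 and 0.60 on normal sodium with AngII, against 0.57, -0.47 and 0.37 on normal sodium, and at -0.51, -0.36 and 0.57 on low sodium with AngII, against 0.60, 0.66 and -0.33 on low sodium. With AngII the diets did not overlap, although low sodium replicate 3 (0.57) was close to the lowest normal sodium array (0.60). That change was -0.94 ± 0.36 (adjusted p = 0.39).

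The kinase Eif2ak2 (Pkr), which stops translation when it meets double-stranded RNA, and the editing enzyme Adar, which limits that response, had narrow ranges. Eif2ak2 was at -1.32, -1.16 and -1.26 on normal sodium with AngII, against -1.49, -1.54 and -1.81 on normal sodium, and at -1.57, -1.67 and -1.20 on low sodium with AngII, against -1.21, -1.12 and -1.62 on low sodium. Adar was at -4.42, -4.19 and -4.46 on normal sodium with AngII, against -4.70, -4.79 and -4.53 on normal sodium, and at -4.46, -4.80 and -4.79 on low sodium with AngII, against -4.55, -4.41 and -4.47 on low sodium. Both were higher on all normal sodium arrays with AngII than on those without it (log2 change 0.37 ± 0.17 and 0.32 ± 0.13). The difference of the AngII effects between diets was -0.53 ± 0.24 for Eif2ak2 and -0.53 ± 0.19 for Adar, each with an adjusted p of 0.857. With AngII, Adar had a log2 change of -0.33 ± 0.13 on low sodium, which ranged from -0.48 to -0.02 over the alternatives. A dimmer second probe of Eif2ak2 gave 0.12 with AngII on normal sodium, against 0.37 for the brightest one.

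Bst2 (tetherin), which holds budding virions at the cell surface, was lower in both low sodium groups. It was at 2.08, 2.43 and 2.22 on low sodium with AngII, against 3.28, 2.71 and 3.21 on normal sodium with AngII, and at 2.98, 2.43 and 2.07 on low sodium, against 3.10 and 3.15 on replicates 2 and 3 of normal sodium. The spot on normal sodium replicate 1 was an outlier by the scanner's own criterion and was dropped, so that the fit rests on 2 arrays there. All 6 low sodium arrays except replicate 1 without AngII (2.98) lay below all 5 normal sodium arrays. The low sodium change was -0.82 ± 0.23 with AngII (adjusted p = 0.299) and -0.64 ± 0.26 without it (adjusted p = 0.691). The AngII changes of -0.06 ± 0.26 on normal sodium and -0.24 ± 0.23 on low sodium were close to or below their standard errors. Macrophage markers also had lower mean scores in both low sodium groups, with -0.24 in low sodium with AngII and 0.27 in normal sodium with AngII, and with -0.17 in low sodium and 0.19 in normal sodium. Without AngII the scores were -0.56 to 0.09 on low sodium and 0.11 to 0.26 on normal sodium. The summed levels of these markers without AngII overlapped, at 15.4 to 22.0 on low sodium and 15.5 to 22.4 on normal sodium. The part of macrophages in the values of Bst2 was not tested.

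Isg15 is conjugated to target proteins with the help of ligases such as Trim25 and removed by Usp18, which also dampens the type I receptor. Isg15 was at 1.03, 1.18 and 0.58 on normal sodium with AngII, against 0.67, -0.58 and -0.17 on normal sodium, and at -0.27, -0.28 and 0.64 on low sodium with AngII, against 0.69, 1.14 and -0.54 on low sodium. Every group but normal sodium with AngII held both positive and negative values, and the AngII changes of 0.96 ± 0.45 and -0.40 ± 0.45 had adjusted p-values of 0.669 and 1. Usp18 was at -0.59, -0.15 and -0.80 on normal sodium with AngII, against -0.57, -1.11 and -0.84 on normal sodium, and at -1.16, -1.38 and -0.78 on low sodium with AngII, against -0.10, -0.34 and -0.82 on low sodium. It stood lower with AngII on low sodium on slides 1 and 2 and level on slide 3, a change of -0.69 ± 0.24 (adjusted p = 1), and a second probe gave -0.59. Trim25 was at 1.16, 0.70 and 0.81 on normal sodium with AngII, against 0.96, 0.46 and 0.21 on normal sodium, and at 0.87, 0.49 and 1.03 on low sodium with AngII, against 1.00, 1.38 and 1.14 on low sodium. Without infusion its low sodium arrays all lay above its normal sodium arrays (log2 change 0.63 ± 0.22, adjusted p = 0.63).

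Of the other induced genes, Rtp4 and Parp14 lay on the side of the type I median in the infused comparisons. Rtp4 was at -0.75, -0.31 and -0.93 on normal sodium with AngII, against -0.81, -2.51 and -1.43 on normal sodium, and at -1.97, -2.07 and -0.84 on low sodium with AngII, against -0.69, -0.25 and -1.88 on low sodium. Its single lowest value, on normal sodium replicate 2, and its single highest, on low sodium replicate 2, came from the same slide, and the difference of AngII effects was -1.60 ± 0.72 (adjusted p = 0.857). Over the alternatives it ranged from -2.67 to -0.39, with an unadjusted p under 0.05 in 8 of 22. Parp14, an ADP-ribosyltransferase, was at 1.31, 1.50 and 1.07 on normal sodium with AngII, against 1.24, 0.35 and 1.00 on normal sodium, and at 0.35, 0.59 and 0.90 on low sodium with AngII, against 0.98, 1.12 and 0.37 on low sodium. With AngII all its low sodium arrays were below its normal sodium arrays (log2 change -0.68 ± 0.26, adjusted p = 0.39), and a second, dimmer probe gave -0.90. Ifi27 ranged from 3.55 on low sodium replicate 3 to 5.99 on normal sodium replicate 1, and its changes of -0.18 to 0.09 in the 4 comparisons were smaller than that range.

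In the gamma set the transcription factors had lower means with AngII on both diets by their brightest probes. Irf8 was tested only because it passed the brightness rule on normal sodium, so that its lower mean against that group was built into its inclusion. Irf1, an early factor of the gamma response, was at 1.35, 1.23 and 1.21 on normal sodium with AngII, against 1.63, 0.97 and 1.74 on normal sodium, and at 0.90, 1.25 and 1.36 on low sodium with AngII, against 1.35, 1.49 and 1.07 on low sodium. All groups overlapped, and its changes of -0.19 ± 0.21 and -0.13 ± 0.21 with AngII were smaller than their standard errors, and a second, dimmer probe gave 0.03 and -0.11. Irf8, a factor of myeloid cells, was at -6.63, -6.07 and -6.35 on normal sodium with AngII, against -6.39, -5.85 and -5.87 on normal sodium, and at -6.41, -7.54 and -7.33 on low sodium with AngII, against -6.73, -6.53 and -6.28 on low sodium. Replicates 2 and 3 of low sodium with AngII were the lowest of all arrays, and the low sodium change with AngII was -0.74 ± 0.28 (adjusted p = 0.39), but in both of those groups the probe was well above background on only 1 of 3 arrays.

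The guanylate-binding proteins, GTPases that attack vacuoles of intracellular pathogens, are represented by Gbp2 and Gbp5. Gbp2 was at 1.40, 1.47 and 1.28 on normal sodium with AngII, against 0.94, 0.73 and 1.23 on normal sodium, and at 0.40, 0.68 and 1.00 on low sodium with AngII, against 0.90, 1.19 and 0.39 on low sodium. The normal sodium arrays with AngII were the 3 highest of all 12, and the low sodium change with AngII was -0.69 ± 0.22 (adjusted p = 0.319), with a range of -0.89 to -0.53 over the alternatives. Gbp5 had a log2 change of 0.22 ± 0.27 with AngII on normal sodium by its brightest probe and of 0.94 by a dimmer one, so that its probes disagree in size.

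Interferon gamma replaces 3 catalytic subunits of the proteasome by Psmb8, Psmb9 and Psmb10 and adds the PA28 cap, made of Psme1 and Psme2, which changes the peptides offered to T cells. Psmb8 was at 0.53, -0.01 and 0.09 on normal sodium with AngII, against 0.14, -0.29 and -0.03 on normal sodium, and at -0.57, -0.06 and -0.72 on low sodium with AngII, against -0.18, 0.01 and -0.08 on low sodium. With AngII the low sodium arrays were all below the normal sodium arrays (log2 change -0.66 ± 0.20, adjusted p = 0.302), but the difference on slide 2 was -0.06. Psmb9 was at 1.37, 1.38 and 1.50 on normal sodium with AngII, against 1.25, 1.06 and 1.37 on normal sodium, and at 0.86, 1.18 and 1.08 on low sodium with AngII, against 1.41, 1.46 and 1.08 on low sodium. It too was lower on all low sodium arrays with AngII (log2 change -0.37 ± 0.14, adjusted p = 0.376). Psmb10, Psme1 and Psme2 had log2 changes between -0.14 and 0.14 in all 4 comparisons. The 14 genes of the constitutive proteasome core had median AngII changes of -0.05 on normal and -0.03 on low sodium, and one of 0.07 for low sodium with AngII, with 0 at an unadjusted p under 0.05.

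Peptides reach class I molecules through the transporter Tap1 and Tap2 and its bridge Tapbp (tapasin), and B2m is the light chain of every class I molecule. Tap1 was at -2.73, -2.22 and -2.45 on normal sodium with AngII, against -2.47, -3.41 and -2.27 on normal sodium, and at -2.98, -3.05 and -2.92 on low sodium with AngII, against -2.64, -2.38 and -2.99 on low sodium. With AngII its low sodium arrays were all below its normal sodium arrays (log2 change -0.52 ± 0.27, adjusted p = 0.507), and the lowest value of all was that of normal sodium replicate 2. All 4 genes of this role had a higher mean with AngII on normal sodium (0.07 to 0.27) and a lower one with AngII on low sodium (-0.35 to -0.16), none at an unadjusted p under 0.05. Of the class I heavy chains, 15 were tested, and with AngII 3 were lower on low sodium at that threshold, RT1-N3 (-0.73 ± 0.14), RT1-CE12 (-0.84 ± 0.26) and RT1-N2 (-0.59 ± 0.23), and 0 were higher, against 8.05% and 4.33% of all genes. The median of the heavy chains was -0.19, and 5 of 15 had a higher mean on low sodium, by up to 0.91. These heavy chain genes are close copies of each other, so their probes may share targets.

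Most members of the type I set varied together from array to array. The correlation of a type I member with the median of the other type I members had a median of 0.84 over the 12 arrays, and exceeded 0.7 for 17 of 23. It was highest for Isg15 (0.97), Ifit3 (0.96) and Rtp4 (0.95) and lowest for Bst2 (0.14), Stat2 (0.37) and Ifi27 (0.40). With group means removed its median was again 0.84. In the gamma set the corresponding median was 0.50, with 4 of 13 above 0.7, and Gbp5 followed the type I median (0.88) more closely than the gamma median (0.71). Of all genes, 0.654% correlated above 0.7 with the type I median, members included. The points share hybridisation and slide, and these values are descriptions without a test. The type I and gamma scores correlated at a Pearson's r of 0.72 (Spearman's rho 0.74), at 0.66 without the 2 arrays farthest from the median type I score, and at 0.63 with group means removed.

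**Figure D5:**
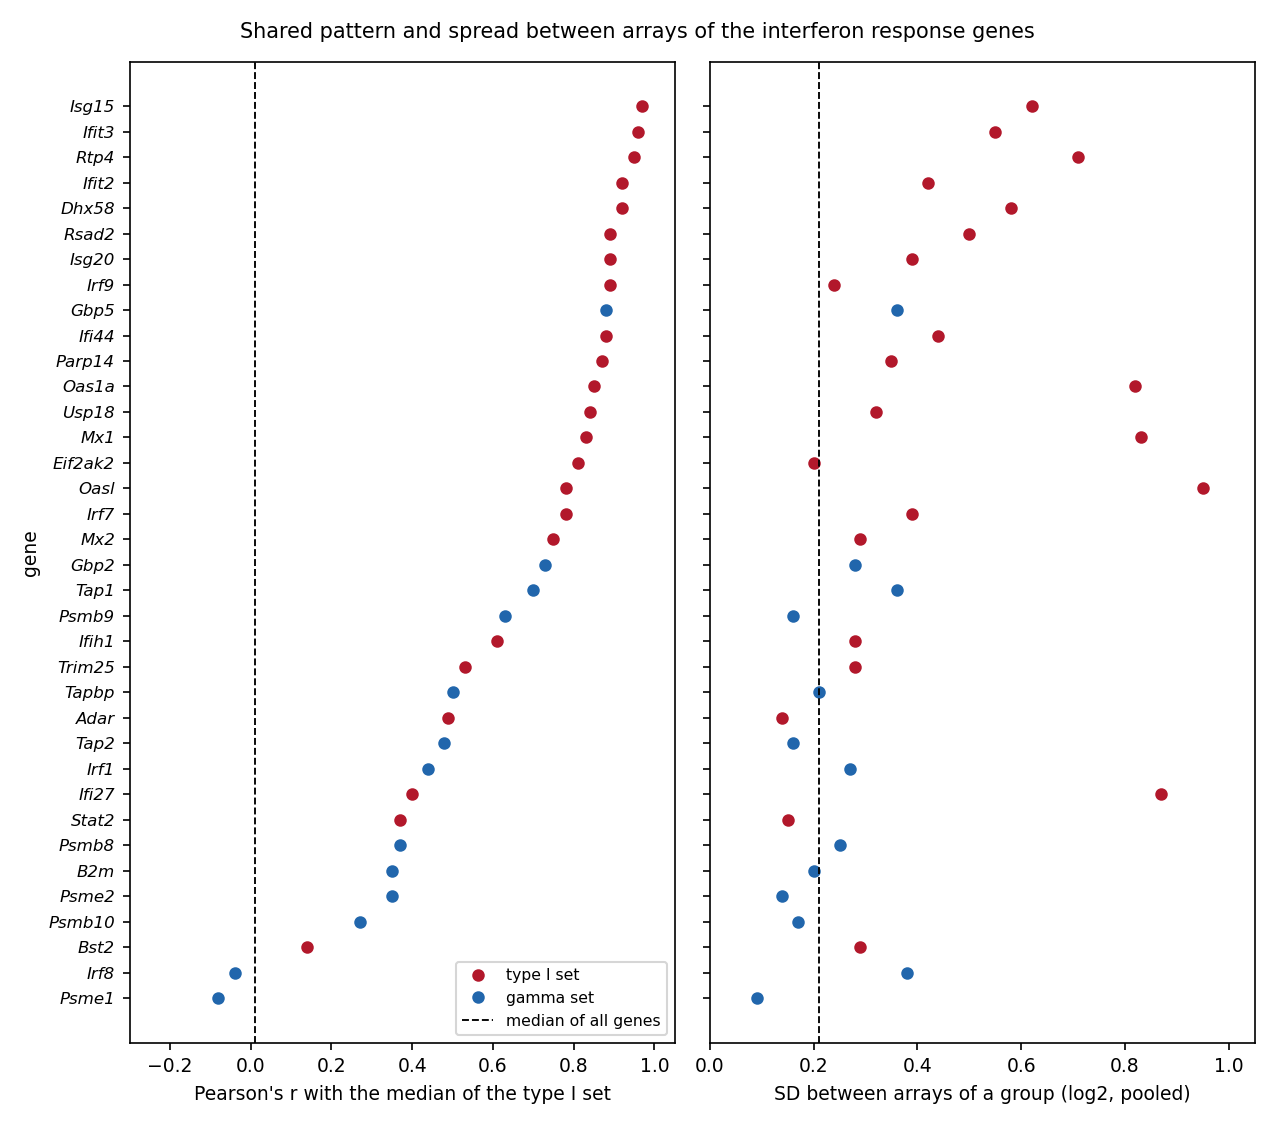
Pearson's r of each member with the median of the (other) type I members over the 12 arrays (left) and its SD between arrays of a group, pooled over groups (right), with dashed lines at the medians of all genes tested. Isg15, Ifit3 and Rtp4 combine the highest r (0.95 to 0.97) with SDs of 0.55 to 0.71, and Psme1 has the lowest r (-0.08) and the lowest SD (0.09).

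The spread between arrays of one group differed between the sets. The pooled SD within groups had a median of 0.39 in the type I set, 0.21 in the gamma set and 0.21 in all genes. It was 0.95 for Oasl, 0.87 for Ifi27, 0.83 for Mx1 and 0.82 for Oas1a, values at or above those of 97.4% of all genes or more. Irf7, at 0.39, exceeded 82.6% of genes, whereas Adar (0.14) and Stat2 (0.15) were among the steadier ones.

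Genes outside the set were ranked by correlation, passing over loci of automatic name (LOC or RGD with a number) and genes lacking a value on any array. Those whose levels followed the type I median most closely were Oasl2 (r = 0.96), Cmpk2 (0.91), Ly6c (0.89), Oas1i (0.89), Parp9 (0.89), Gbp4 (0.86), Vipr1 (0.86), Cryba4 (0.86), Ube2l6 (0.85) and Ybx3 (0.85), over 12 arrays. For the gamma median they were RT1-M6-1 (0.89), Slfn2 (0.86), Ube2l6, Ifgga2l2, Slamf9 and Lgals3bp (0.83 each), Cryba4, Phf11 and Irgm (0.82 each) and Fcgr3a (0.81). Oasl2, Cmpk2, Parp9, Gbp4, Ube2l6, Slfn2, Lgals3bp, Phf11 and Irgm stand in the lists of further interferon-induced genes used below, and Fcgr3a among the macrophage markers.

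The ligands were hardly measurable. Of 14 genes for interferons and the cytokines that induce interferon gamma, 8 had a probe and 2 were tested; Ifng and Ifnb1 were not well above background on any array. Il18, which promotes interferon gamma release, was lower on low sodium without AngII (log2 change -0.74 ± 0.26). Of 9 tested genes for receptors and their kinases and Stats, 1 reached an unadjusted p under 0.05 in any of the 4 comparisons: Ifnar1, a chain of the type I receptor, was lower on low sodium with AngII (log2 change -0.38 ± 0.14). Among 11 tested sensors and adaptors, the factor Irf5 was lower on low sodium with AngII (log2 change -0.41 ± 0.15) and without it (log2 change -0.47 ± 0.15), and the adaptor Sting1 without it (log2 change -0.34 ± 0.15), and 0 of the 10 negative regulators tested reached that threshold. At that threshold 8.05% of all genes were lower and 4.33% higher on low sodium with AngII, and 4.68% and 3.1% without it. With AngII, 3.53% were lower and 4.42% higher on normal sodium, and 0.856% and 0.928% on low sodium. The share of all genes reaching it in any of the 4 comparisons was not counted.

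Further interferon-induced genes were listed from textbook knowledge, but with earlier results of these data known, so that they are no independent check of the set. Of 28 type I genes tested outside the set, 24 had a higher mean with AngII on normal sodium (5 higher and 0 lower at an unadjusted p under 0.05) and 25 a lower mean with AngII on low sodium (5 at that threshold, 0 higher). Of all genes 52.7% had a higher mean with AngII on normal sodium, with 4.42% higher and 3.53% lower at that threshold. On low sodium 45.7% of all genes had a higher mean with AngII, with 0.928% higher and 0.856% lower at that threshold. For low sodium with AngII 12 of the 28 were lower at that threshold and 0 higher, against 8.05% and 4.33% of all genes. For the difference of the AngII effects 9 were below 0 and 0 above, against 3.08% and 2.44% of all genes. Ly6e, a surface protein that limits entry of some viruses, had log2 changes of 0.82 ± 0.21 with AngII on normal sodium and -0.50 ± 0.21 on low sodium, and Trim34, a ubiquitin ligase of the antiviral family, had 0.63 ± 0.16 and -0.45 ± 0.16. Their differences between diets were -1.32 ± 0.29 and -1.08 ± 0.23. With AngII, Tnfsf10, the death ligand Trail, was lower on low sodium (log2 change -0.78 ± 0.17), as was Slfn2 (-0.66 ± 0.16). Tnfsf10 was dim, with mean levels of -6.63 on low sodium with AngII and -5.85 on normal sodium with AngII. With AngII on normal sodium 1 of 19 further gamma-induced genes was higher and 1 lower at that threshold, against 4.42% and 3.53% of all genes. They were the immunity-related GTPase Ifi47 (0.68 ± 0.27) and the tryptophanyl-tRNA synthetase Wars1 (-0.56 ± 0.20). With AngII 6 of the 19 were lower on low sodium and 0 higher, against 8.05% and 4.33% of all genes. Among the 6 were Ifi47 (-1.06 ± 0.27), Casp4 (-0.54 ± 0.15), Casp1 (-0.52 ± 0.15) and Fcgr1a (-0.72 ± 0.22). On low sodium 1 of the 19 was higher with AngII, Tapbpl (2.59 ± 1.07), and 1 was lower, Ifi47 (-0.61 ± 0.27), against 0.928% and 0.856% of all genes. Tapbpl was dim on low sodium without AngII, with a mean level of -5.97 against -3.38 with it. The difference of the AngII effects was above 0 in 1 of the 19, Wars1 (0.67 ± 0.28), and below 0 in 3 at that threshold, against 2.44% and 3.08% of all genes. These lists share all arrays with the set and were scored on the same slides.

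Markers of other cells were read in the AngII comparison on normal sodium as well. Of 13 macrophage markers 10 had a higher mean with AngII (median 0.17, 0 at an unadjusted p under 0.05), with scores of 0.16 to 0.35 in normal sodium with AngII and 0.11 to 0.26 in normal sodium. Of 12 T and NK cell markers 1 was higher and 11 lower (median -0.20, 1 lower at that threshold), Cd3e, Cd5 and Klrb1 being too dim to test, with scores of -0.04 to 0.08 in normal sodium with AngII and -0.13 to 0.64 in normal sodium. Of the red cell markers 3 of 3 were higher (median 0.71, 2 at that threshold), with scores of 0.31 to 0.72 in normal sodium with AngII and -1.13 to -0.12 in normal sodium. Of 8 smooth muscle and pericyte markers 7 were higher (median 0.51, 4 at that threshold). Beside these, 52.7% of all genes had a higher mean, and 4.42% were higher and 3.53% lower at that threshold. On low sodium the medians with AngII were -0.04 for macrophages, -0.08 for T and NK cells, 0.02 for red cells and 0.00 for smooth muscle. The part of these cells in the interferon values was not tested.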

How the data were processed

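RNA of the left ventricle was hybridised to one-colour Agilent rat arrays, 1 array per sample. The deposited scanner files hold spot intensities, background-subtracted and detrended by Feature Extraction 10.7.3.1 per the file headers (the submitters' processing notes name 11.0.1.1). The authors also deposited a table of log2 values for 20438 probes, whose centring, offset and filter are not given in the sources used here, and it served as an alternative (column medians 8.81 to 8.95, rank correlation with the own array 0.996 to 0.999). The notes name limma and R.

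From the intensities, log2 of the processed signal minus the 75th percentile of 42877 non-control spots was computed per array. Control spots and outlier spots were left out, and spots of 1 probe were averaged. Probes entered the test if 1 or more groups had, on each array, a share of at least 0.5 of spots well above background, which left 20020 of 30367 probes. Symbols came from transcript accessions through a RefSeq gene table (18758 probes matched, 11609 did not), and the brightest tested probe stood for a gene. Group means were fitted over all 12 arrays with limma 3.58.1 in R 4.3.3, with 5 contrasts, and p-values were adjusted (Benjamini-Hochberg) over all tested probes. The code was tested on simulated data. Rows with a missing array (60) were fitted without it.

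The members and lists were chosen with earlier results of these data known. Values on every array are given for Irf7, Isg15, Ifit3, Usp18, Irf1, Psmb8 and Tap1 and for each member with an unadjusted p under 0.05 in any contrast. In each contrast the 3 lowest and 3 highest members are named, from each pathway list up to 4 genes at that threshold, and for each set the 10 genes most like its median. Those 10 were taken from genes outside the set with a value on every array, and loci of automatic name were passed over.

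The replicate number is the slide. After group means were removed, arrays with the same number correlated above 0.1 in 17 of 18 pairs (0.0469 to 0.432), and arrays with different numbers had a median of -0.181, so the fit with the replicate as a block was run as an alternative. Others were normexp background (offset 50), quantile normalization, no filter on dim probes, the mean of a gene's probes, array weights, the authors' values, and leaving out each array or slide. One gene of the pathway lists is not reported here.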

Additional observations from a re-analysis of the deposited data

How the results depend on the processing

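Counts of members at an unadjusted p under 0.05 depended on the settings, and medians on settings and single slides. With AngII on normal sodium 3 members passed, against 9 with normexp, 8 with the authors' values and 8 with array weights, and 0 to 14 with an array or slide left out. The count of all probes was 1453, against 1714, 2238 (of the authors' probes) and 1231 in these settings. It was 697 to 2316 with an array or slide left out. With AngII on low sodium 2 members passed, against 4 with normexp, 1 with no filter and 19 with array weights, and 0 to 11 in the leave-outs. Of all probes 342 passed, against 255, 463 (of 30367) and 2256 in these settings, and 280 to 687 in the leave-outs. For the diet dependence 11 members passed, against 7 with no filter and 21 with array weights, and 2 to 17 in the leave-outs. Of all probes 1014 passed, against 989 (of 30367) and 1854 in these settings, and 526 to 1553 in the leave-outs. For low sodium with AngII 11 members passed, against 26 with array weights and 3 to 14 in the leave-outs, and array weights were the one setting with members past the adjusted threshold, 6 in number. Of all probes 2223 passed at the unadjusted threshold, against 5298 with array weights and 840 to 2709 in the leave-outs. For low sodium without AngII 3 members passed, against 6 with normexp, 5 with the authors' values and 9 with array weights, and 0 to 9 in the leave-outs. The count of all probes was 1407, against 1810, 1552 (of the authors' probes) and 1827 in these settings, and 799 to 2303 in the leave-outs. Leave-outs moved the type I median from 0.17 to 0.61 for AngII on normal sodium, -0.71 to -0.05 for AngII on low sodium, -1.22 to -0.34 for the diet dependence, -0.86 to -0.21 for low sodium with AngII and -0.05 to 0.48 for low sodium without it. The gamma medians ran from -0.05 to 0.20, -0.35 to -0.08, -0.53 to -0.09, -0.38 to -0.24 and -0.13 to 0.12 in the same order. Normexp gave gamma medians of 0.02 instead of 0.14 for AngII on normal sodium, -0.17 instead of -0.30 for low sodium with AngII and -0.05 instead of 0.05 for low sodium without it, where the authors' values gave -0.02, and it gave a type I median of 0.19 instead of 0.30 in the last of these. Array weights took the type I median to -0.58 for AngII on low sodium and to 0.45 for low sodium without AngII. Array weights also raised the count of all 20020 probes at an unadjusted p under 0.05, to 2256 from 342 for AngII on low sodium and to 5298 from 2223 for low sodium with AngII. The split of all probes at that threshold turned with the authors' values, which gave 738 higher and 1500 lower against 849 and 604 for AngII on normal sodium, and 2335 higher and 1023 lower against 740 and 1483 for low sodium with AngII. With the replicate as a block the counts of members were 2 and 2 for AngII on normal and low sodium, 8 for the diet dependence, and 11 and 3 for low sodium with and without AngII. Those of all probes were 1689, 460, 1138, 2339 and 1703 in the same order. The 30 changes of single members with an unadjusted p under 0.05 in the main fit kept their sign in each alternative that held them. They were picked on the same arrays that the alternatives reuse, so that a kept sign is no separate support. With AngII, the low sodium change of Adar came as near to 0 as -0.02 and that of Irf8 as -0.17. The cause of these shifts was not tested. The 3 arrays per group limit the precision, and array weights gave normal sodium replicate 1 a weight of 0.245 and low sodium with AngII replicate 2 one of 5.91.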
